A study of Mus musculus with 24 samples.

Results

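The proteasome genes described here are the 47 mouse genes whose symbols begin with Psma, Psmb, Psmc, Psmd, Psme, Psmf or Psmg followed by a digit, out of 24346 genes in the count tables. The immunoproteasome subunits Psmb8, Psmb9 and Psmb10 were left out of the set and are given only for comparison. 45 of the 47 members had enough reads to be tested, among 13356 genes tested. The others were Psma8, the testis form of an alpha subunit, with 0 counts in all 12 libraries, which allows at most 0.0107 CPM (counts scaled to the size of the library) over them together, and Psmb11, the thymus form of a beta subunit, with 7 counts in all. Those bounds cover counting error only. Psmc3ip (also called Hop2, a meiotic recombination factor) and Psme3ip1, a partner of the activator PA28 gamma, match the symbol rule but are not proteasome subunits.

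The proteasome is the barrel-shaped protease that degrades ubiquitin-tagged proteins in the cytosol and nucleus. Its 20S core stacks rings of alpha subunits, which form the gate, around rings of beta subunits, which hold the active sites, and the 19S cap, made of a base with ATPases and a lid, binds, deubiquitinates and unfolds the substrate. PA28 and PA200 are other caps that open the gate, and assembly chaperones build the rings and the base. Under proteasome stress the genes are induced together by Nfe2l1, a factor that is also called NRF1 but is not the Nrf1 of this study's chromatin data, which is nuclear respiratory factor 1. Fat cells need proteasome activity during differentiation, and Nfe2l1 is known for setting it in brown fat.

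The data come from mouse 3T3-L1 cells, a fibroblast-like preadipocyte line, used at passages 13 to 18, that becomes adipocytes when given a hormone cocktail. RNA-seq covered 4 groups of 3 libraries: control cells at day 0, when they were undifferentiated and confluent, and at day 7, and cells labelled as overexpressing LSD1 (Kdm1a, a histone demethylase) at the same days. The cocktail given at day 0 held rosiglitazone (10 µM), isobutylmethylxanthine (500 µM), dexamethasone (1 µM) and insulin (10 µg/ml), with a change of medium at day 3. ChIP-seq peak lists of 1 sample each cover LSD1 in the 4 conditions and Nrf1 at both days. For Nrf1 at day 7, the sample's title speaks of LSD1 cells whereas its genotype label says control, so it is used here without a genotype. The labels do not give the vector, the promoter or whether the LSD1 cells are 1 clone. They call the replicates biological without naming separate cultures, so the p-values measure the spread between these libraries.

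Differences between groups are log2 differences from edgeR's quasi-likelihood test, each with its standard error (SE), and their p-values were adjusted over all tested genes by Benjamini-Hochberg, with 0.05 as the threshold. Kdm1a, whose level checks the label, stood at 79.0, 86.3 and 84.1 CPM in control day 0, 66.1, 67.6 and 74.5 in control day 7, 89.4, 104 and 99.0 in labelled day 0 and 54.3, 55.4 and 54.4 in labelled day 7 libraries. At day 0 the labelled libraries lay above control by a log2 difference of 0.23 (SE 0.10, edgeR adjusted p = 0.0969), which did not pass, and at day 7 they lay below control, at -0.34 (SE 0.10, edgeR adjusted p = 0.00751). The libraries are therefore called labelled throughout. Library totals were 27512273 to 37565527 counts. Labelled day 0 replicate 1 stood apart: its log CPM correlated at 0.955 and 0.957 with the other two of its group, which correlated at 0.993. The 8 adipocyte markers summed to 668 to 844 and 9480.1 to 11194 CPM in control and 495 to 623 and 26502 to 32249.6 CPM in labelled libraries at days 0 and 7. The 8 fibroblast markers summed to 43993 to 47379.9 and 12419 to 13317 CPM in control and 20017 to 26846 and 1592 to 1696 CPM in labelled libraries. Macrophage, muscle and endothelial lists summed to at most 2.06, 44.1 and 2.55 CPM in any library, with Adgre1, Myod1 and Myog at 0.

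The promoters that held the Nrf1 motif are shown first, with or without a listed Nrf1 peak, since their sequence can be read directly. Nuclear respiratory factor 1 recognises a GC-rich palindrome, whose exact form is in capitals in the Psma2 sequence printed here. The search on both strands used a looser form of this motif, in which the fifth base from the 5′ end may be any base, so that each exact match is also a loose one. In the RefSeq table of promoters for build GRCm38.p6 (250 bases before to 50 after the start site), 39 of the 47 members had an entry. Psma8, Psmb1, Psmb2, Psmb7, Psmc3, Psmd3, Psmd7 and Psmg2 had none. The looser form was present in 7 of the 39 (17.9%), beside 5.19% of all 27025 promoters in the table and 11.3% of the 10365 promoters of tested genes. The 6 matches upstream of a start site are printed with 25 bases on each side, 5′ to 3′ in the direction of the gene, with the motif in capitals:
Psma2: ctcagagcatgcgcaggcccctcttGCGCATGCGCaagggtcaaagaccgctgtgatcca
Psma3: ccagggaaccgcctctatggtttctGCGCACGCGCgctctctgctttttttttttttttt
Psma4: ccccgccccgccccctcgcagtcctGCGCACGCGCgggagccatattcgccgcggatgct
Psmc4: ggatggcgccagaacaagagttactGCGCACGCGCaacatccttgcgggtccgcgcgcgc
Psmc5: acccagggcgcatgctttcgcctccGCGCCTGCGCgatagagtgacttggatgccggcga
Psmd14: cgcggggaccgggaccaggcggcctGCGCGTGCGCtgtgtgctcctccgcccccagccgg

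The printed stretches lie at chr13:14613090-14613149 (plus strand) for Psma2, chr12:70974520-70974579 (plus) for Psma3 and chr9:54950773-54950832 (plus) for Psma4. Those of Psmc4, Psmc5 and Psmd14 lie at chr7:28050227-28050286 (minus), chr11:106256111-106256170 (plus) and chr2:61711589-61711648 (plus). The matches of Psma3, Psma4 and Psmc4 read on the strand opposite to the gene. The first base of the motif lay 127 bases before the start site in Psma2, 78 in Psma3, 61 in Psma4, 169 in Psmc4, 49 in Psmc5 and 80 in Psmd14. The seventh match, in Psmg1, lay past the start site. The exact palindrome was present in Psma2 and Psmg1, 2 of 39, beside 2.29% of tested genes.

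An Nrf1 peak within 1 kb of an annotated start site was listed for 5 of the 47 members at day 0 and 5 at day 7, beside 12.1% and 13.1% of tested genes with a start site. Psma2, Psma4, Psmc4 and Psmd14 had one at both days. Psmc5, an ATPase of the base, had one at day 0 alone, and Psma5, a gate subunit, at day 7 alone. The authors' peak score, which ranks peaks within a list, was 279 for Psma2 at day 0 and 1082 at day 7, where it ranked 4 of 1629 peaks. Scores were 97.9 and 152 for Psma4, 60.9 and 116 for Psmc4, 124 and 111 for Psmd14, 100.47 for Psmc5 at day 0 and 56.0 for Psma5 at day 7. With 1 sample a day and unknown ChIP depth, scores of different lists cannot be compared, and day 7 may differ in genotype.

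The motif and the peak lists were made separately. Of the 6 members with a peak at either day, 5 held the motif in the promoter window, Psma5 being the other. Among tested genes with a promoter entry, 43.8% of those with a peak held it. Read the other way, 5 of the 7 members with the motif had a peak, beside 69.2% of tested genes with it. Psma3 and Psmg1 had the motif and no listed peak. The start sites of Psma2, Psma4 and Psmc5 lie 205, 95 and 101 bases from those of the divergent genes Mrpl32, AY074887 and Ftsj3, so those 3 peaks cannot be assigned to 1 gene of the pair. Other motifs searched on both strands were near the share in all tested genes: the antioxidant response core TGACNNNGC, bound by Nfe2l1 and Nfe2l2, in 6 of 39 members (15.4% against 16.9%), and CCAAT, the NF-Y box, in 15 (38.5% against 43.3%).

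Across all members, differentiation of control cells moved single subunits up and down, while the labelled cells at day 7 held more RNA for many of them. In control cells 12 of 45 members rose from day 0 to day 7, where 23.7% of all tested genes rose, and 6 fell, where 24.6% of all fell. The 6 falls became 2 without control day 0 replicate 2, 3 without control day 0 replicate 3 and 1 without control day 7 replicate 1, and 8 without labelled day 0 replicate 1. With each library's trend on GC content and transcript length removed, 11 members fell and 10 rose in control, beside 25.4% and 24.4% of all genes in that fit, and their median was -0.06. The members' median log2 difference was 0.04, beside -0.01 over all tested genes. In labelled cells 27 of 45 rose, beside 32.6% of all genes, with a median of 0.45 (all genes -0.07). None fell in edgeR's test, beside 37.2% of all genes, although 1 did at an unadjusted p under 0.05, and DESeq2 called none lower. Without labelled day 0 replicate 1, 37 of the 45 rose in labelled cells, with a median of 0.58. The share of all genes in that fit is not given here. In these bulk libraries, fewer cells of a type and less RNA per cell cannot be told apart.

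Between labelled and control libraries, 2 members were higher at day 0 (12.8% of all genes) and 2 lower (13.0%), with a median of 0.02 (all genes 0.00). At day 7, 25 were higher (30.2% of all genes) and the median was 0.37 (all genes -0.05). None was lower at day 7 in edgeR's test (33.4% of all genes), with 1 at an unadjusted p under 0.05 and none by DESeq2. The adipocyte markers were also higher in labelled libraries at day 7, and their part in the members' differences was not tested. The interaction, the difference between the changes from day 0 to day 7 in labelled and in control cells, was positive for 20 members (23.9% of all genes) and negative for 1 (28.1%), with a median of 0.44 (all genes -0.06). These comparisons share libraries with each other, so their values stand side by side and are not separate evidence. The day 0 counts rest on few calls: with any 1 of the 12 libraries left out they were 1 to 5 higher and 0 to 14 lower. The 14 were without labelled day 0 replicate 1, a fit in which 26.0% of all genes were lower at day 0. The interaction was then positive for 32 members, beside 31.0% of all genes. With the GC and length trend removed, 16 of 45 members rose in labelled cells, 35.6% beside 35.3% of all genes in that fit, and 5 fell, beside 38.9%. At day 7, 26 were then higher, beside 33.2% of all genes, and 4 lower, beside 35.0%.

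**Figure D1:**
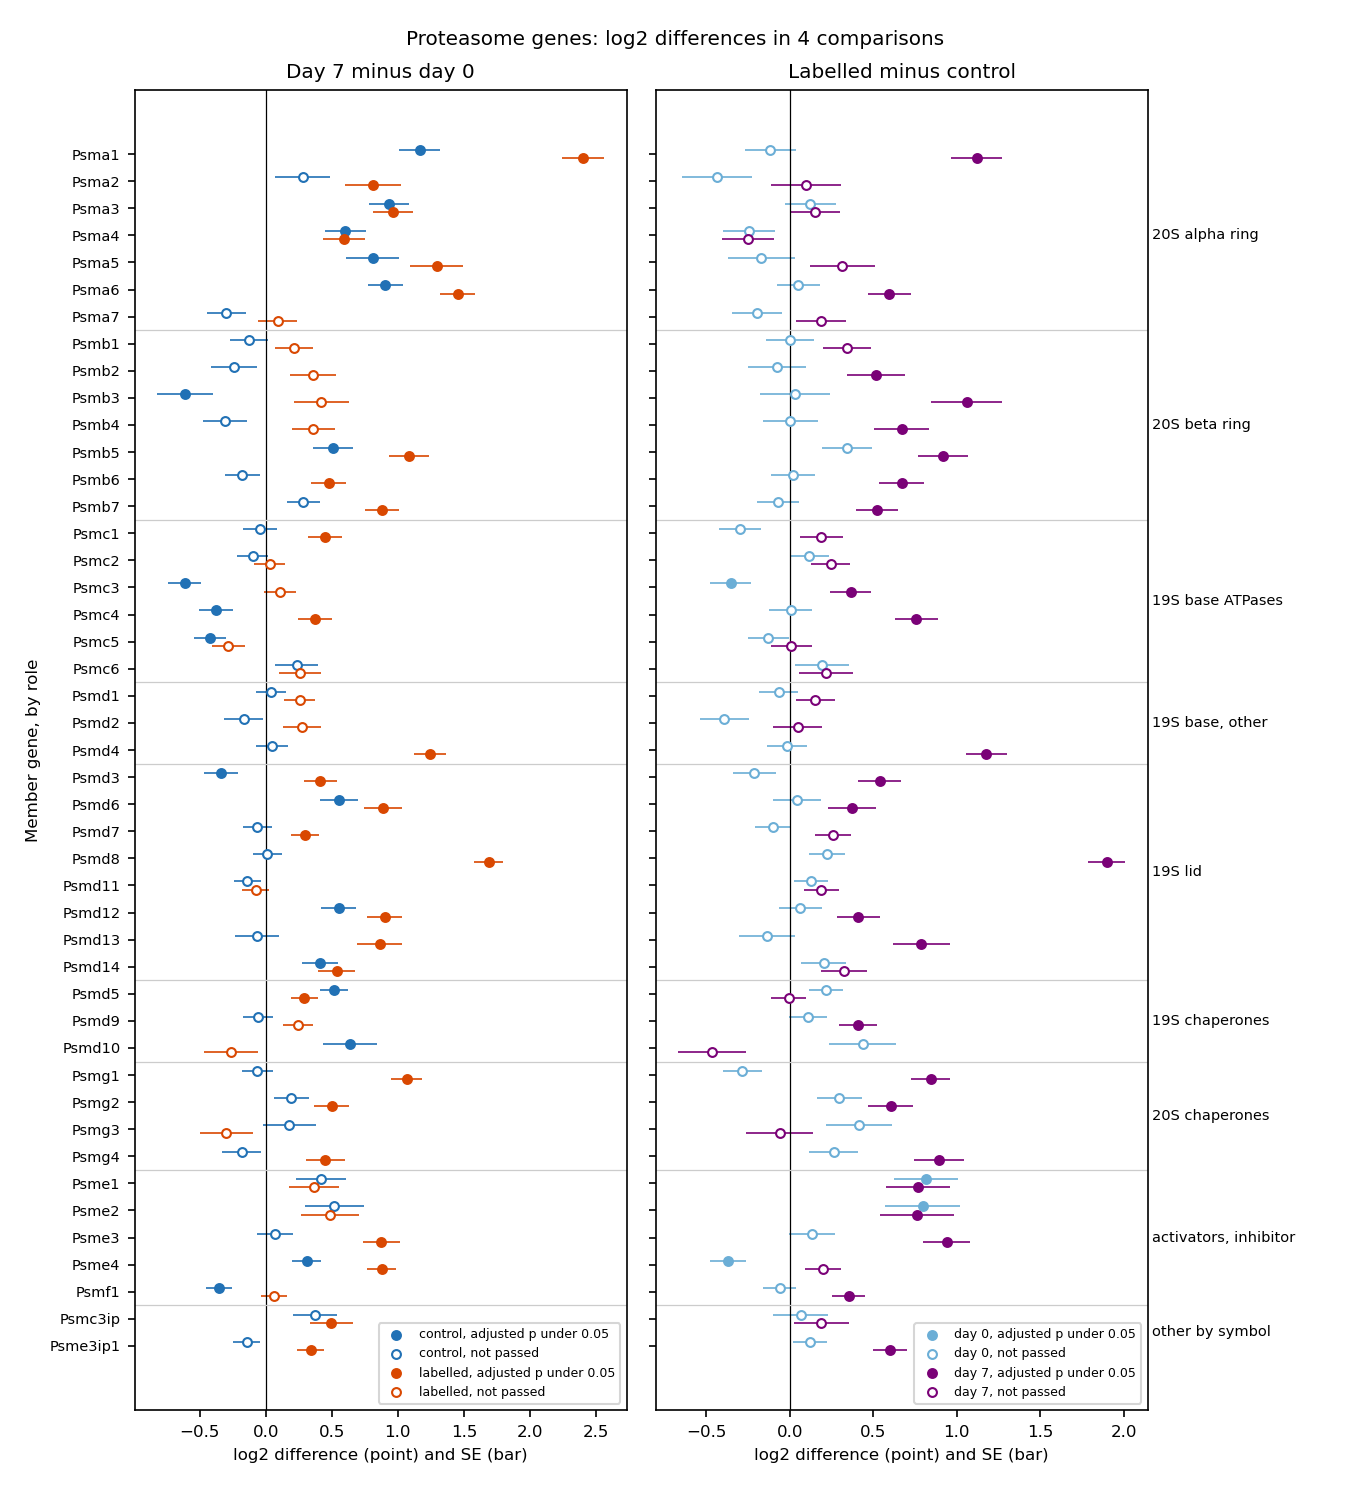
log2 differences (points) with their SE (bars) of the 45 tested members by role, on the left for day 7 minus day 0 in control and labelled libraries and on the right for labelled minus control at each day; filled points passed an adjusted p of 0.05 in edgeR. Filled points at day 7 on the right all lie above 0, led by Psmd8 at 1.90.

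The shares of all tested genes also stand beside the counts by part that follow. They were 23.7% higher and 24.6% lower in control, 32.6% and 37.2% in labelled cells, and 12.8% and 13.0% between labels at day 0. At day 7 between labels they were 30.2% and 33.4%, and for the interaction 23.9% and 28.1%. Parts hold few genes, and a count near these shares is no result about the part. Most of the alpha ring rose during control differentiation. 5 of its 7 tested subunits passed, Psma1, Psma3, Psma4, Psma5 and Psma6, with a ring median of 0.81, and none fell at an adjusted or an unadjusted p in edgeR or in DESeq2. In labelled cells 6 of 7 rose (median 0.97). With the GC and length trend removed, 4 rose there and 1 fell, beside 35.3% and 38.9% of all genes in that fit. Psma1 and Psma6 were higher in labelled than in control libraries at day 7 and had a positive interaction, that of Psma6 being lost without control day 0 replicate 2, control day 7 replicate 1 or 2, or labelled day 0 replicate 2 (edgeR adjusted p up to 0.064). At day 0 none of the 7 differed by label at an adjusted or unadjusted p in edgeR or in DESeq2, while 5 were lower without labelled day 0 replicate 1.

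Psma1 (chr7:114264550-114276116, minus strand), a subunit of the outer ring, had 102, 124 and 104 CPM in control day 0 and 235, 239 and 265 CPM in control day 7 libraries. Labelled libraries had 129, 79.8 and 95.4 CPM at day 0 and 562, 519 and 525 CPM at day 7. The day 7 libraries lay above day 0 under both labels, and the labelled day 7 libraries above all others, while the 2 day 0 groups overlapped. Its log2 difference was 1.17 (SE 0.15, edgeR adjusted p = 5.19e-05) in control, 2.40 (SE 0.16, edgeR adjusted p = 2.53e-08) in labelled cells and 1.12 (SE 0.15, edgeR adjusted p = 3.36e-05) between labels at day 7. The interaction was 1.24 on the log2 scale (SE 0.22, edgeR adjusted p = 0.000405).

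Psma6 (chr12:55398825-55418459, plus strand) followed, with 102, 140.0 and 115 CPM at day 0 and 209.6, 210.1 and 249.9 CPM at day 7 in control libraries, and 131, 111 and 128 CPM at day 0 and 352, 319.6 and 339.5 CPM at day 7 in labelled libraries. Its day 0 groups overlapped and its day 7 groups did not. It rose by 0.91 on the log2 scale (SE 0.13, edgeR adjusted p = 9.73e-05) in control and 1.45 (SE 0.13, edgeR adjusted p = 4.51e-07) in labelled cells.

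Psma3 (chr12:70974623-70995877, plus strand) had the lowest level per kb of transcript of the 14 core subunits in every group, 5.27 CPM per kb in control day 0, beside 339 for the highest, Psmb1. It had 11.5, 14.3 and 11.7 CPM at day 0 and 24.2, 23.8 and 23.7 CPM at day 7 in control libraries, and 13.7, 12.6 and 14.5 CPM at day 0 and 31.5, 26.8 and 21.4 CPM at day 7 in labelled libraries. Day 7 lay above day 0 under both labels, and the labels overlapped at each day. It rose by 0.94 on the log2 scale (SE 0.15, edgeR adjusted p = 0.000287) in control cells. Levels per kb rest on the length of the transcript that stood for each gene. The part of that choice in the spread between core subunits was not tested.

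Psma2 and Psma4 are the alpha subunits with an Nrf1 peak at both days. Psma2 had 71.4, 98.1 and 73.6 CPM at day 0 and 92.7, 100.03 and 102 CPM at day 7 in control libraries, and 85.0, 41.7 and 52.9 CPM at day 0 and 109, 105 and 102 CPM at day 7 in labelled libraries. Its control groups overlapped, at 0.28 on the log2 scale (SE 0.21, edgeR adjusted p = 0.29), and its labelled groups did not, at 0.81 (SE 0.21, edgeR adjusted p = 0.0038). Psma4 had 66.7, 79.1 and 66.9 CPM at day 0 and 99.5, 111 and 112 CPM at day 7 in control libraries, and 75.8, 49.5 and 54.4 CPM at day 0 and 104, 85.9 and 81.5 CPM at day 7 in labelled libraries. Its day 7 libraries lay above day 0 under both labels, with log2 differences of 0.60 (SE 0.16, edgeR adjusted p = 0.00672) and 0.59 (SE 0.16, edgeR adjusted p = 0.00436). With the GC and length trend removed neither passed, at 0.21 and 0.18 (edgeR adjusted p = 0.177 and 0.201), nor did Psma2 in labelled cells, at 0.39 (edgeR adjusted p = 0.0684). Psma7, the alpha subunit with the highest GC content, gave -0.30 on the log2 scale (SE 0.15, edgeR adjusted p = 0.12) in control.

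**Figure D2:**
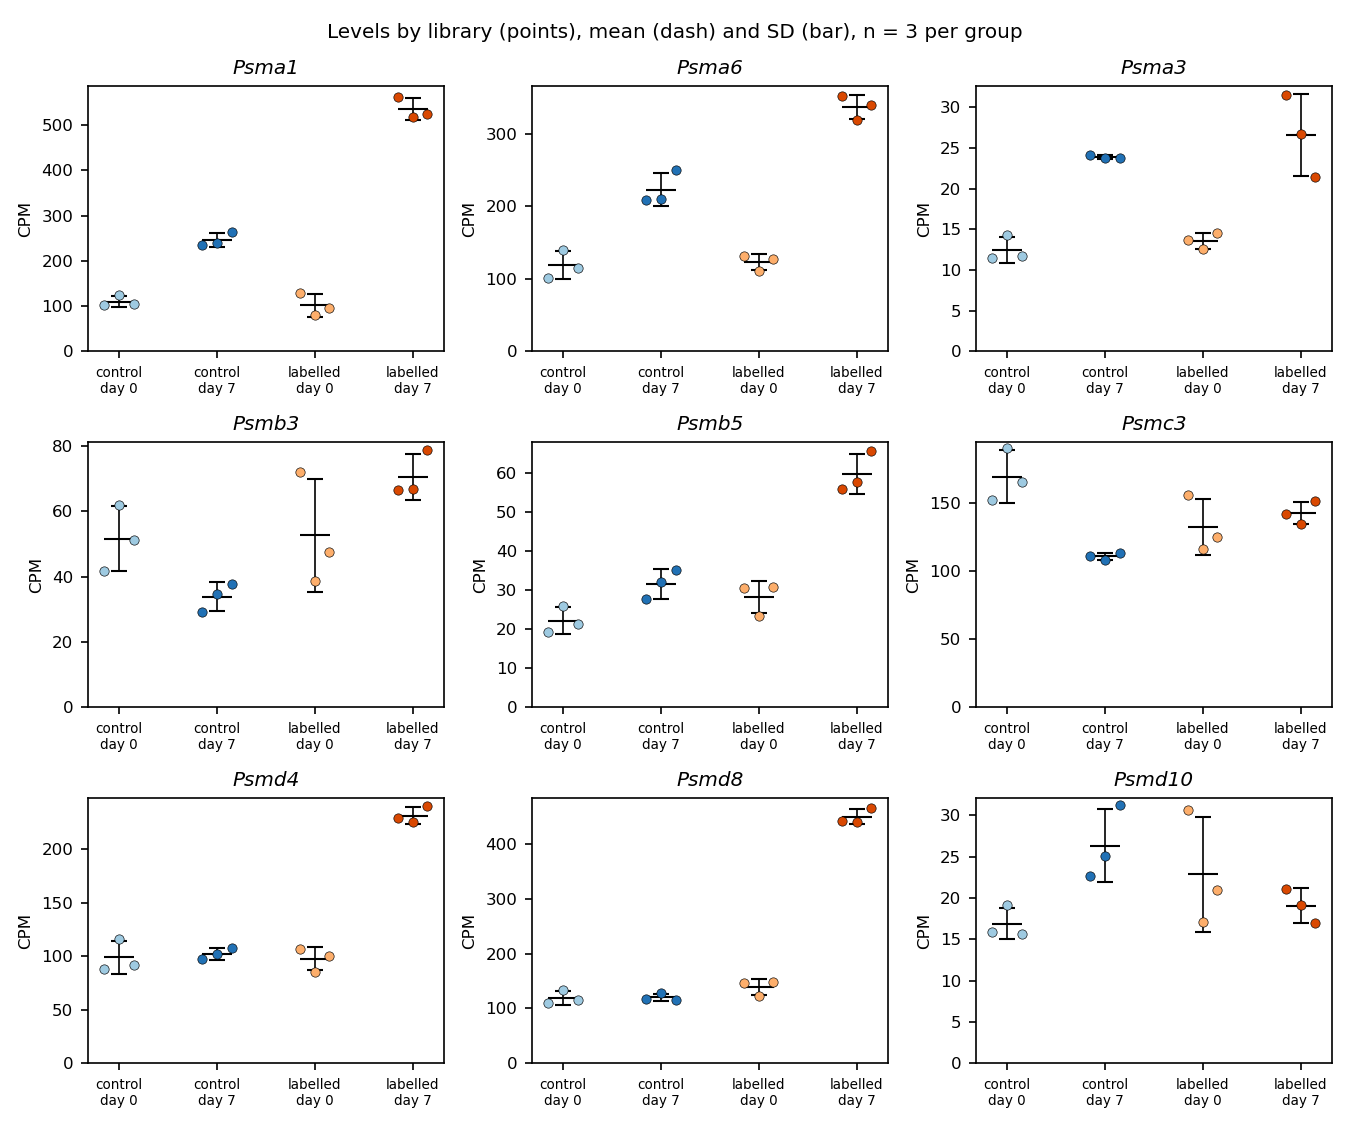
CPM of 9 members in each library (points) with the group mean (dash) and SD (bar), n = 3 per group, on linear axes that start at 0. Psma1, Psma6, Psmd4 and Psmd8 are highest in all 3 labelled day 7 libraries, Psmc3 is lowest in control day 7, and Psmd10 has 1 labelled day 0 library near the control day 7 level.

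In control differentiation 1 of the 7 tested subunits of the beta ring rose, Psmb5, and 1 fell, Psmb3, with a ring median of -0.18. In labelled cells the 3 constitutive catalytic subunits Psmb5, Psmb6 and Psmb7 rose, with a ring median of 0.42. Without labelled day 0 replicate 1, all 7 rose in labelled cells, with a ring median of 0.59. With the GC and length trend removed, 1 rose and 4 fell in control and 2 rose in labelled cells. At day 7, 6 of 7 were higher in labelled than in control libraries (median 0.67). Psmb1 was the other, at 0.34 on the log2 scale (SE 0.14, edgeR adjusted p = 0.0517). With the GC and length trend removed, 5 of 7 were higher at day 7, beside 33.2% of all genes in that fit, and the median was 0.25. The call of Psmb2 was lost with the GC and length trend removed and without control day 7 replicate 1 or 3 or labelled day 7 replicate 1 (edgeR adjusted p up to 0.161). The interaction was positive for 5 of 7, Psmb3 to Psmb7, and that of Psmb4 was lost in 7 of the 12 fits that left out 1 library, those without control day 0 replicate 2, control day 7 replicate 1 or 2, labelled day 0 replicate 2 or 3, or labelled day 7 replicate 1 or 3 (edgeR adjusted p up to 0.0801). At day 0 no beta subunit differed by label in edgeR, 1 did upward at an unadjusted p under 0.05, and DESeq2 called none.

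Psmb5, the chymotrypsin-like subunit and the main target of proteasome inhibitor drugs, had 19.3, 25.9 and 21.3 CPM at day 0 and 27.6, 31.9 and 35.0 CPM at day 7 in control libraries, and 30.4, 23.4 and 30.7 CPM at day 0 and 55.8, 57.6 and 65.5 CPM at day 7 in labelled libraries. Day 7 lay above day 0 under both labels and the day 0 groups overlapped. Its log2 difference was 0.51 (SE 0.15, edgeR adjusted p = 0.0145) in control, 1.08 (SE 0.15, edgeR adjusted p = 2.86e-05) in labelled cells and 0.92 (SE 0.15, edgeR adjusted p = 0.000154) between labels at day 7. The control call was lost without control day 0 replicate 1 or 3 or control day 7 replicate 3 (edgeR adjusted p up to 0.0682), and the interaction was 0.58 on the log2 scale (SE 0.21, edgeR adjusted p = 0.0368). The interaction was lost with the GC trend removed, at 0.20 (edgeR adjusted p = 0.377), and without control day 0 replicate 2 or 3, control day 7 replicate 1 or 2, labelled day 0 replicate 2, or labelled day 7 replicate 2 or 3 (edgeR adjusted p up to 0.101).

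Psmb6, the caspase-like subunit, had 90.0, 122 and 99.8 CPM at day 0 and 84.6, 91.1 and 100.19 CPM at day 7 in control libraries, and 118, 91.0 and 107 CPM at day 0 and 138, 144 and 157 CPM at day 7 in labelled libraries. Control groups overlapped, and all 3 labelled day 7 libraries were above the rest. It rose by 0.48 on the log2 scale (SE 0.13, edgeR adjusted p = 0.00614) in labelled cells, a call lost with the GC and length trend removed, at 0.14 (edgeR adjusted p = 0.174).

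Psmb7, the trypsin-like subunit, had 110.3, 140.1 and 122 CPM at day 0 and 148, 147 and 159 CPM at day 7 in control libraries, and 139, 103 and 113 CPM at day 0 and 236, 209 and 207 CPM at day 7 in labelled libraries, rising by 0.88 on the log2 scale (SE 0.13, edgeR adjusted p = 4.07e-05) in the latter. Again the labelled day 7 libraries stood above all others.

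Psmb3 (chr11:97703434-97713500, plus strand), a structural beta subunit, had 41.8, 61.8 and 51.3 CPM at day 0 and 29.1, 34.8 and 37.7 CPM at day 7 in control libraries, and 72.0, 38.7 and 47.4 CPM at day 0 and 66.4, 66.7 and 78.8 CPM at day 7 in labelled libraries. Control day 7 was below control day 0 in all libraries, the labelled groups overlapped, and labelled day 7 lay above control day 7. It fell with a log2 difference of -0.61 (SE 0.21, edgeR adjusted p = 0.0302) in control and was higher by 1.06 (SE 0.21, edgeR adjusted p = 0.00075) in labelled libraries at day 7. Leaving out control day 0 replicate 2 or 3, or control day 7 replicate 1 or 2, ended the call of the fall (edgeR adjusted p up to 0.127).

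Summed per kb of transcript, the alpha genes stood to the beta genes as 0.545 ± 0.0124 (SD, n = 3) in control day 0 and 0.876 ± 0.0390 in control day 7 libraries. The ratio was 0.492 ± 0.0174 and 0.874 ± 0.0452 in labelled day 0 and day 7 libraries. It was 0.473 to 0.560 in the 6 day 0 libraries and 0.825 to 0.920 in the 6 day 7 libraries, so the days did not overlap. GC content moved with this split: it was 41.1 to 52.6% in the 7 alpha transcripts (median 44.0%) and 47.7 to 56.6% in the 7 beta transcripts (median 51.9%). Across the 45 members, the control difference had a Spearman coefficient of -0.58 with GC content, beside -0.31 over 13059 tested genes with a GC value; genes share the libraries and are not independent replicates. The label difference at day 7 had a coefficient of 0.46 with GC content across the members, beside 0.14 over all these genes. For the interaction it was 0.41, beside 0.13. With the GC and length trend removed, 4 alpha subunits (Psma1, Psma3, Psma5 and Psma6) rose in control and Psma7 fell, and 1 beta subunit rose and 4 fell. Psma1 was then at 0.77 and Psma3 at 0.50. In labelled day 7 libraries, Psma1 alone had a mean of 427 CPM per kb, within a mean alpha sum of 1139. The ratio of alpha to beta genes was computed neither without Psma1 nor with that trend removed.

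**Figure D3:**
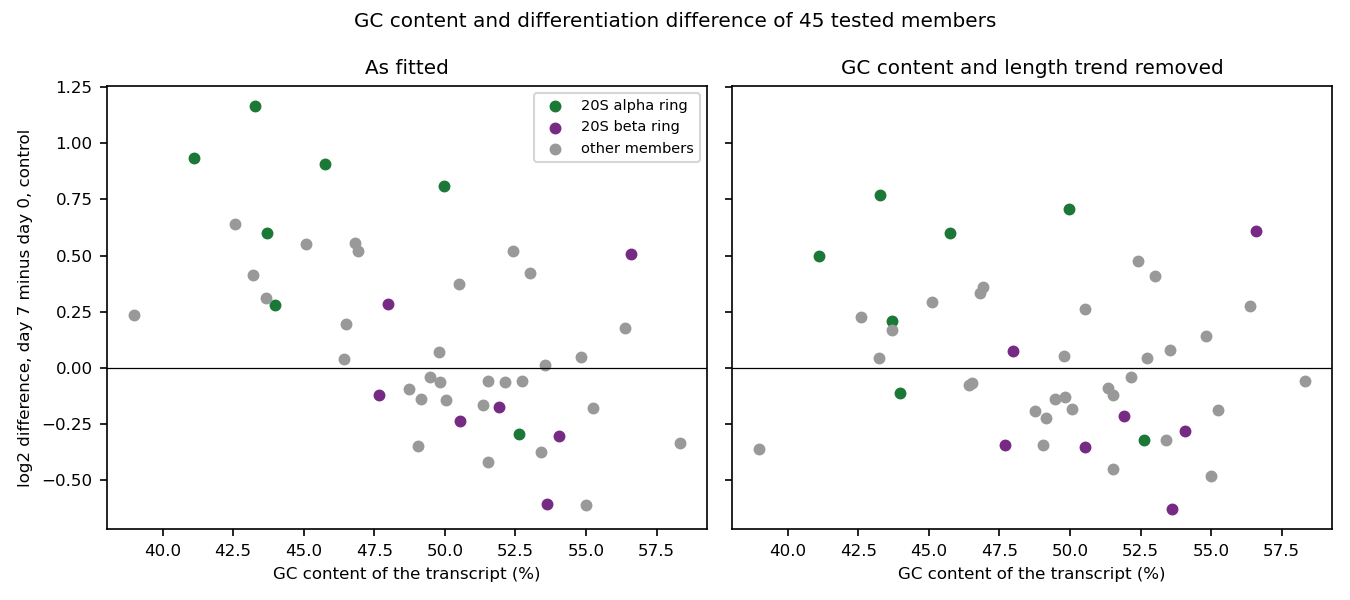
Control day 7 minus day 0 log2 difference of the 45 tested members against the GC content (%) of the transcript, as fitted (left) and with each library's trend on GC content and transcript length removed (right), with the alpha ring in green and the beta ring in purple. Most alpha subunits lie at low GC content and above 0 on the left, and 5 of 7 lie above 0 on the right.

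The 19S cap is taken by its parts. Of the 6 base ATPases, which unfold substrates, Psmc3, Psmc4 and Psmc5 fell in control differentiation (median of the 6, -0.24), and none rose at an adjusted or unadjusted p in edgeR or in DESeq2. In labelled cells Psmc1 and Psmc4 rose, and none fell in edgeR or DESeq2, with 1 lower at an unadjusted p under 0.05. Psmc3 and Psmc4 were higher in labelled than control libraries at day 7. The interaction was positive for Psmc1, Psmc3 and Psmc4, that of Psmc1 being kept in 2 of the 12 fits that left out 1 library, those without control day 0 replicate 1 or labelled day 0 replicate 1 (edgeR adjusted p up to 0.0832 in the others). With the GC and length trend removed, neither Psmc1 nor Psmc4 passed in labelled cells (edgeR adjusted p = 0.0957 and 0.132).

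Psmc3 (chr2:91054016-91059438, plus strand) had 152, 191 and 165 CPM at day 0 and 111, 108 and 113 CPM at day 7 in control libraries, and 156, 116 and 125 CPM at day 0 and 142, 135 and 151 CPM at day 7 in labelled libraries. Control day 7 was the lowest group, without overlap with any other, and the 2 day 0 groups overlapped. The log2 difference was -0.61 (SE 0.12, edgeR adjusted p = 0.00128) in control differentiation. At day 0 labelled minus control was -0.35 on the log2 scale (SE 0.12, edgeR adjusted p = 0.0495), which held in 2 of the 12 fits that each left out 1 library. It was lost without control day 0 replicate 2 or 3, labelled day 0 replicate 2 or 3, or any 1 day 7 library (edgeR adjusted p up to 0.193). The day 7 call between labels, 0.37 on the log2 scale (SE 0.12, edgeR adjusted p = 0.0195), was lost without control day 7 replicate 2 or labelled day 7 replicate 3 (edgeR adjusted p up to 0.0621) and was 0.03 with the GC and length trend removed (edgeR adjusted p = 0.748).

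Psmc4, with an Nrf1 peak at both days, had 100.50, 126 and 120.4 CPM at day 0 and 87.2, 96.9 and 83.1 CPM at day 7 in control libraries, and 134, 99.7 and 114 CPM at day 0 and 151, 139.7 and 161 CPM at day 7 in labelled libraries. The days did not overlap under either label, lower at day 7 in control and higher in labelled cells. Its interaction was 0.75 on the log2 scale (SE 0.18, edgeR adjusted p = 0.00401). The fall in control, -0.38 on the log2 scale (SE 0.13, edgeR adjusted p = 0.0289), was lost without control day 0 replicate 2 or 3 or control day 7 replicate 1 or 3 (edgeR adjusted p up to 0.107), and the rise in labelled cells, 0.38 (SE 0.13, edgeR adjusted p = 0.0195), without labelled day 0 replicate 2 or labelled day 7 replicate 3 (edgeR adjusted p up to 0.0828).

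Psmc5 (chr11:106256185-106263112, plus strand), with an Nrf1 peak at day 0, had 109, 129.8 and 108 CPM at day 0 and 81.6, 89.2 and 88.6 CPM at day 7 in control libraries, and 126, 93.0 and 98.2 CPM at day 0 and 87.9, 85.7 and 87.2 CPM at day 7 in labelled libraries. Day 7 was below day 0 under both labels without overlap, and the 2 day 7 groups overlapped. It fell with a log2 difference of -0.42 (SE 0.12, edgeR adjusted p = 0.0133) in control, a call lost without control day 0 replicate 2 or control day 7 replicate 1 (edgeR adjusted p up to 0.0647). Labelled cells gave -0.28 on the log2 scale (SE 0.12, edgeR adjusted p = 0.0561).

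The rest of the base is made of Psmd1, Psmd2 and Psmd4. Psmd4 (chr3:95032691-95042614, minus strand), a receptor for ubiquitin chains, had 88.5, 116 and 92.0 CPM at day 0 and 97.0, 102 and 108 CPM at day 7 in control libraries, and 107, 85.7 and 100.32 CPM at day 0 and 229, 225 and 239.9 CPM at day 7 in labelled libraries. The labelled day 7 libraries stood above all others, and the other 3 groups overlapped. It rose by 1.24 on the log2 scale (SE 0.12, edgeR adjusted p = 1.11e-06) in labelled cells and was 1.18 (SE 0.12, edgeR adjusted p = 2.95e-06) higher than control at day 7, with an interaction of 1.19 (SE 0.17, edgeR adjusted p = 9.03e-05). Its control difference was 0.05 on the log2 scale (SE 0.12, edgeR adjusted p = 0.764). Psmd1 and Psmd2, the scaffold subunits, passed in none of the 5 comparisons in edgeR. By DESeq2, Psmd2 was lower at day 0 in the labelled libraries, at -0.39 on the log2 scale (SE 0.15, edgeR adjusted p = 0.0675) in edgeR's test. Psmd1 was higher at day 7 than day 0 in labelled cells by DESeq2, at 0.26 (SE 0.12, edgeR adjusted p = 0.0639) in edgeR's test. Without labelled day 0 replicate 1, all 3 of these base subunits rose in labelled cells in edgeR (median 0.47).

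The lid held the member with the largest label difference, Psmd8 at day 7, while its median then was below that of the beta ring (0.39 against 0.67). In control differentiation 3 of its 8 subunits rose, Psmd6, Psmd12 and Psmd14, and Psmd3 fell. In labelled cells 7 of 8 rose (median 0.70), Psmd11 at -0.08 on the log2 scale (SE 0.10, edgeR adjusted p = 0.529) being the other. With the GC and length trend removed, 6 rose there and 1 fell, at -0.33, beside 35.3% and 38.9% of all genes in that fit. At day 7, 5 of 8 were higher in labelled libraries (median 0.39), and 3 had a positive interaction, Psmd3, Psmd8 and Psmd13. Among the 5, Psmd12 was lost without control day 7 replicate 1 or labelled day 7 replicate 1 (edgeR adjusted p up to 0.0681), and Psmd6 without any 1 control day 7 library or labelled day 7 replicate 1 or 2 (edgeR adjusted p up to 0.147). The rise of Psmd7 in labelled cells was lost without labelled day 0 replicate 2 or 3 or labelled day 7 replicate 1 or 2 (edgeR adjusted p up to 0.0966). Psmd3 in control was -0.06 with the GC and length trend removed (edgeR adjusted p = 0.454), and its fall was also lost without any 1 of the control libraries or labelled day 7 replicate 2 (edgeR adjusted p up to 0.123).

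Psmd8 (chr7:29174187-29180673, minus strand), a lid subunit that joins late in its assembly, had 109.7, 133 and 116 CPM in control day 0 and 118, 128 and 116 CPM in control day 7 libraries. Labelled libraries had 147, 123 and 149 CPM at day 0 and 443, 441 and 466 CPM at day 7. The control groups and labelled day 0 overlapped at 109.7 to 149 CPM, and the labelled day 7 libraries stood far above them. The log2 difference was 1.69 (SE 0.11, edgeR adjusted p = 2.08e-08) in labelled cells and 1.90 (SE 0.11, edgeR adjusted p = 1.82e-08) between labels at day 7, against 0.01 (SE 0.11, edgeR adjusted p = 0.937) in control. The interaction of 1.68 on the log2 scale (SE 0.15, edgeR adjusted p = 2.1e-06) was the largest of the members.

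Psmd14, the deubiquitinase of the lid and a gene with an Nrf1 peak at both days, had 76.2, 86.2 and 70.5 CPM at day 0 and 97.4, 108 and 104 CPM at day 7 in control libraries, and 74.0, 92.9 and 101 CPM at day 0 and 147, 130.3 and 112 CPM at day 7 in labelled libraries. Day 7 lay above day 0 under both labels, with log2 differences of 0.41 (SE 0.14, edgeR adjusted p = 0.0251) and 0.54 (SE 0.14, edgeR adjusted p = 0.00358). The control call was lost with the GC and length trend removed, at 0.04 (edgeR adjusted p = 0.733), and without control day 0 replicate 1 or 3 or control day 7 replicate 2 or 3 (edgeR adjusted p up to 0.104).

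Assembly chaperones serve the 19S base or the 20S core. Of the base chaperones, Psmd5 and Psmd10 rose in control cells and Psmd5 in labelled cells, and Psmd9 was higher in labelled libraries at day 7. Psmd10 (gankyrin, chrX:140948425-140956711, minus strand) had 15.9, 19.1 and 15.7 CPM at day 0 and 22.6, 25.1 and 31.3 CPM at day 7 in control libraries, and 30.6, 17.0 and 21.0 CPM at day 0 and 21.1, 19.2 and 16.9 CPM at day 7 in labelled libraries. Day 7 lay above day 0 in control, while the labelled groups overlapped and 1 labelled day 0 library, replicate 1, was as high as control day 7. Its control difference was 0.64 on the log2 scale (SE 0.20, edgeR adjusted p = 0.02), lost without control day 0 replicate 1 or 3 or control day 7 replicate 3 (edgeR adjusted p up to 0.0971) and with the GC and length trend removed. The rise of Psmd5 in labelled cells was lost without labelled day 7 replicate 1 or 2 (edgeR adjusted p up to 0.0648) and with that trend removed, while its rise in control, 0.52 on the log2 scale (SE 0.10, edgeR adjusted p = 0.00128), held in all 12 fits that left out 1 library. The Psmd10 interaction of -0.90 on the log2 scale (SE 0.29, edgeR adjusted p = 0.0187) was the single negative one, and was lost without control day 7 replicate 3 or labelled day 7 replicate 3 (edgeR adjusted p up to 0.057).

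Of the 4 core chaperones, Psmg1, Psmg2 and Psmg4 rose in labelled cells and were higher in labelled than control libraries at day 7. None of the 4 passed in control differentiation at an adjusted or unadjusted p in edgeR or in DESeq2. Psmg1, which pairs with Psmg2 to start the alpha ring, rose by 1.07 on the log2 scale (SE 0.12, edgeR adjusted p = 3.23e-06) in labelled cells, where its means went from 26.6 ± 3.20 to 55.8 ± 4.74 CPM (SD, n = 3). The rises of Psmg2 and Psmg4 were lost with the GC and length trend removed (edgeR adjusted p = 0.434 and 0.771), and that of Psmg4 also without labelled day 0 replicate 2 or labelled day 7 replicate 1 (edgeR adjusted p up to 0.0646). Psmg3 at day 7 gave -0.06 on the log2 scale (SE 0.20, edgeR adjusted p = 0.805) between labels. With the GC and length trend removed, 3 of the 4 were higher at day 7 and 1 lower, at -0.51 (33.2% and 35.0% of all genes in that fit). In labelled cells 1 then rose and 1 fell, at -0.59 (35.3% and 38.9%). The interaction was then positive for 1 and negative for 1, at -0.86 (28.0% and 30.2%).

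The 4 members that differed by label at day 0 were Psme1 and Psme2, which were higher in labelled libraries, and Psme4 and Psmc3, which were lower. Psme1 (chr14:55578494-55581527, plus strand) and Psme2 (chr14:55587440-55591021, minus strand) encode the PA28 cap, known for its induction by interferon and its part in making peptides for antigen presentation. Psme1 had 54.1, 59.1 and 47.5 CPM at day 0 and 70.0, 72.6 and 72.5 CPM at day 7 in control libraries, and 134, 74.6 and 74.6 CPM at day 0 and 119, 118 and 129 CPM at day 7 in labelled libraries. All labelled libraries lay above all control libraries, and labelled day 0 replicate 1 was the highest of the 12. The log2 difference between labels was 0.82 (SE 0.19, edgeR adjusted p = 0.00792) at day 0 and 0.77 (SE 0.19, edgeR adjusted p = 0.00361) at day 7, and the interaction was -0.05 (SE 0.27, edgeR adjusted p = 0.889), with a 95% interval of -0.58 to 0.48.

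Psme2 had 11.0, 15.5 and 14.1 CPM at day 0 and 17.7, 16.5 and 23.8 CPM at day 7 in control libraries, and 32.2, 17.9 and 20.3 CPM at day 0 and 33.9, 29.1 and 35.5 CPM at day 7 in labelled libraries. The labels did not overlap at either day, though control day 7 overlapped labelled day 0. The log2 difference was 0.80 (SE 0.22, edgeR adjusted p = 0.0201) at day 0 and 0.76 (SE 0.22, edgeR adjusted p = 0.00928) at day 7, and the interaction was -0.03 (SE 0.31, edgeR adjusted p = 0.937), with a 95% interval of -0.65 to 0.58. Without labelled day 0 replicate 1 the day 0 values were 0.48 for Psme1 and 0.50 for Psme2 (edgeR adjusted p = 0.000463 and 0.0154). The Psme2 call at day 0 was lost without control day 0 replicate 1 or 3 (edgeR adjusted p up to 0.0862), and reads of its near-copy Psme2b, which has no row of its own, may be counted with it.

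Psmb8 and Psmb9, the catalytic subunits that replace Psmb5 and Psmb6 in the immunoproteasome, were measured beside PA28. Psmb8 had 0.550, 0.765 and 0.674 CPM at day 0 and 3.74, 3.38 and 5.20 CPM at day 7 in control libraries, and 7.53, 1.36 and 1.46 CPM at day 0 and 1.16, 1.60 and 0.983 CPM at day 7 in labelled libraries. Control day 7 was above control day 0, and labelled day 0 replicate 1 was the highest of all. Psmb9 had 0.432, 0.483 and 0.476 CPM at day 0 and 2.63, 2.87 and 4.12 CPM at day 7 in control libraries, and 5.53, 1.61 and 1.42 CPM at day 0 and 0.552, 0.413 and 0.311 CPM at day 7 in labelled libraries, in the same order. In control differentiation both rose, with log2 differences of 2.62 (SE 0.60, edgeR adjusted p = 0.00308) and 2.78 (SE 0.51, edgeR adjusted p = 0.000736). The label difference of Psmb8 was 2.36 on the log2 scale (SE 0.60, edgeR adjusted p = 0.0121) at day 0 and -1.72 (SE 0.57, edgeR adjusted p = 0.0194) at day 7, and that of Psmb9 2.60 (SE 0.51, edgeR adjusted p = 0.00292) and -2.91 (SE 0.54, edgeR adjusted p = 0.000425). Without labelled day 0 replicate 1, the day 0 values were 1.08 and 1.70, and the day 7 call of Psmb8 was lost without control day 7 replicate 3 or labelled day 7 replicate 1 or 3 (edgeR adjusted p up to 0.0720).

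The interactions of Psmb8 and Psmb9 were -4.08 on the log2 scale (SE 0.83, edgeR adjusted p = 0.00126) and -5.51 (SE 0.75, edgeR adjusted p = 5.63e-05), beside values near 0 for Psme1 and Psme2; the difference between these genes was not tested. Of 14 interferon response genes, 13 were higher in labelled libraries at day 0, beside 12.8% of all genes, and none was lower, at an adjusted or unadjusted p in edgeR or in DESeq2. At day 7, 11 of the 14 were lower, beside 33.4% of all genes, and 1 was higher. Their summed level was 277 to 311 and 526 to 603 CPM in control and 774 to 1855 and 242 to 263 CPM in labelled libraries at days 0 and 7. Their part in the PA28 values was not tested. Psmb10, which replaces Psmb7, was higher at day 7 in labelled libraries, with 21.0, 22.9 and 22.1 CPM in control and 41.7, 42.1 and 46.6 CPM in labelled libraries, a log2 difference of 0.98 (SE 0.27, edgeR adjusted p = 0.00686). Per kb of transcript, Psmb8 made up 2.08 ± 0.111% and 8.46 ± 1.31% of the sum of Psmb5 and Psmb8 in control and 7.42 ± 6.57% and 1.49 ± 0.441% in labelled libraries at days 0 and 7 (SD, n = 3).

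**Figure D4:**
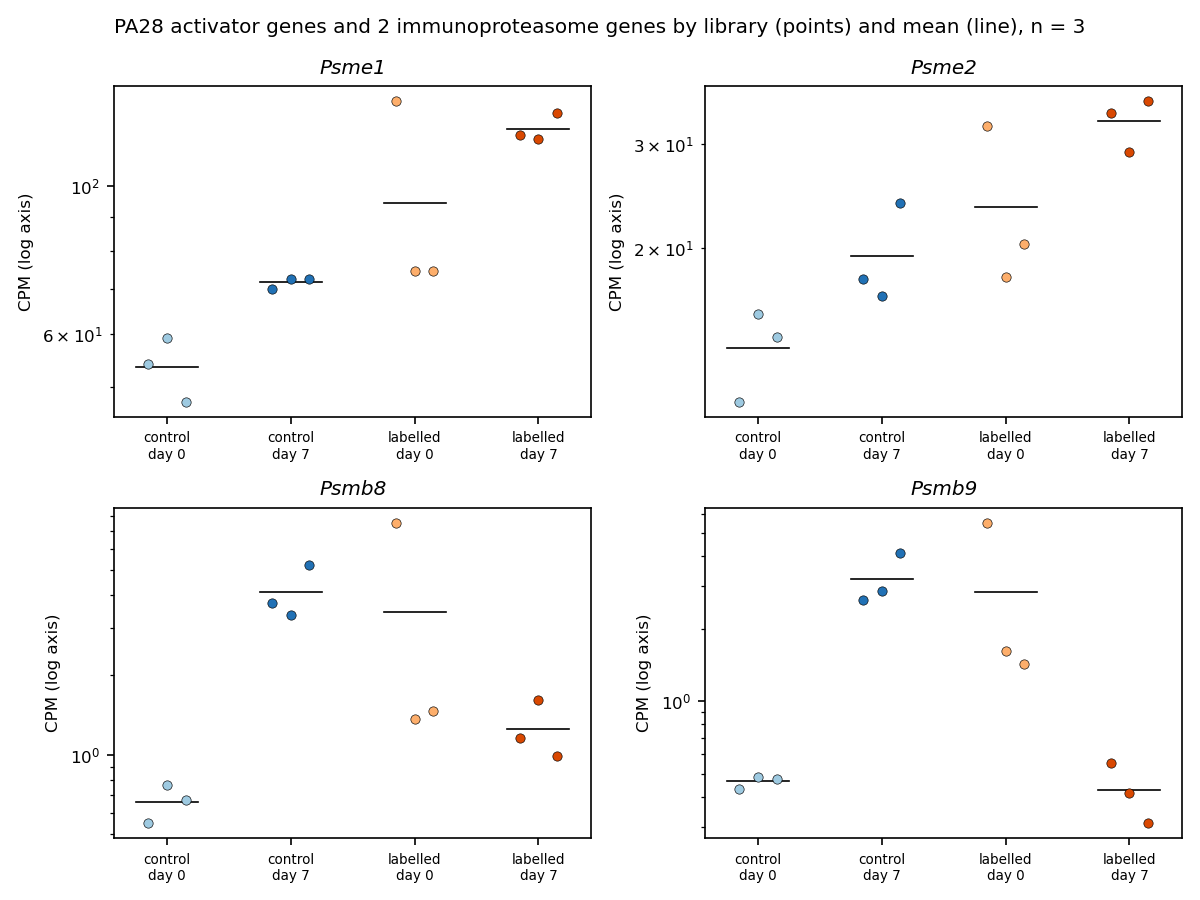
CPM of the PA28 genes Psme1 and Psme2 and of the immunoproteasome genes Psmb8 and Psmb9 in each library (points, log axes) with the mean of each group of 3 (line). Psme1 and Psme2 are higher in labelled than control libraries at both days, while Psmb8 and Psmb9 are higher at day 0 and lower at day 7, with labelled day 0 replicate 1 above the other 2 of its group in each panel.

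Of the other caps, Psme3, the nuclear PA28 gamma, rose by 0.88 on the log2 scale (SE 0.14, edgeR adjusted p = 8.64e-05) in labelled cells, from a mean of 188 ± 34.9 to 344 ± 13.6 CPM (SD, n = 3), and was 0.94 (SE 0.14, edgeR adjusted p = 6.3e-05) higher than control at day 7. Psme4, the PA200 cap, had 128, 132 and 132 CPM at day 0 and 164, 148 and 175 CPM at day 7 in control libraries, and 91.5, 110.5 and 102 CPM at day 0 and 199, 194 and 166 CPM at day 7 in labelled libraries. Labelled day 0 was the lowest group without overlap, and the 2 day 7 groups overlapped. Its label difference at day 0 was -0.37 on the log2 scale (SE 0.11, edgeR adjusted p = 0.0239), a call lost without any 1 control day 0 library or labelled day 0 replicate 3 (edgeR adjusted p up to 0.0750) and with the GC and length trend removed (edgeR adjusted p = 0.0618). Psmf1, the inhibitor PI31, fell in control, with a log2 difference of -0.35 (SE 0.10, edgeR adjusted p = 0.0107), lost without control day 7 replicate 1 (edgeR adjusted p = 0.0567), and was higher in labelled libraries at day 7. The rise of Psme4 in control, 0.31 on the log2 scale (SE 0.11, edgeR adjusted p = 0.0304), was lost without any 1 control day 0 library or control day 7 replicate 1 or 3 (edgeR adjusted p up to 0.122). Psmc3ip, no subunit, gave 0.50 on the log2 scale (SE 0.16, edgeR adjusted p = 0.016) in labelled cells, a call lost without labelled day 0 replicate 2 or 3 or labelled day 7 replicate 1 or 2 (edgeR adjusted p up to 0.0734).

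Genes that work with the proteasome under other symbols were counted on lists. The percentages in brackets are the shares of all tested genes. Of 10 further parts and factors, 3 rose and 1 fell in control (all genes 23.7% and 24.6%), 6 rose and 1 fell in labelled cells (32.6% and 37.2%), and at day 7, 5 were higher (30.2%) and none lower in labelled libraries (edgeR and DESeq2, adjusted and unadjusted). Sem1, a small lid subunit, rose by 1.34 on the log2 scale (SE 0.28, edgeR adjusted p = 0.00176) and Adrm1, a ubiquitin receptor of the base, fell with a log2 difference of -0.63 (SE 0.13, edgeR adjusted p = 0.00127) in control cells. Txnl1, a thioredoxin that binds the cap, was 1.06 on the log2 scale (SE 0.08, edgeR adjusted p = 2.62e-07) higher in labelled libraries at day 7. Usp14, a deubiquitinase of the cap, fell in labelled cells with a log2 difference of -0.34 (SE 0.10, edgeR adjusted p = 0.00634), which missed the threshold with the GC and length trend removed (edgeR adjusted p = 0.059).

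Of the 7 genes around Nfe2l1, 5 rose and 1 fell in labelled cells (all genes 32.6% and 37.2%). In labelled libraries 3 were higher at day 0 (12.8%) and 5 at day 7 (30.2%), and 1 was lower at day 7 (33.4%). Nfe2l1 had 354, 356 and 384 CPM at day 0 and 426, 417 and 426 CPM at day 7 in control libraries, and 409, 686 and 644 CPM at day 0 and 728, 785 and 781 CPM at day 7 in labelled libraries. The labels did not overlap at either day, and labelled day 0 replicate 1 was the lowest labelled library. The log2 difference was 0.67 (SE 0.15, edgeR adjusted p = 0.00737) at day 0 and 0.85 (SE 0.16, edgeR adjusted p = 0.000351) at day 7. Ngly1, the enzyme that strips sugar from the Nfe2l1 protein, rose by 1.32 on the log2 scale (SE 0.14, edgeR adjusted p = 2.51e-06) and Mafg, a small Maf partner, fell with a log2 difference of -0.86 (SE 0.14, edgeR adjusted p = 0.000117) in labelled cells. These are RNA levels, and Nfe2l1 is known to be controlled mainly as a protein. Nrf1 itself had 37.9, 35.5 and 37.7 CPM at day 0 and 27.7, 29.7 and 27.3 CPM at day 7 in control libraries, and 32.0, 46.8 and 47.5 CPM at day 0 and 32.2, 34.1 and 35.6 CPM at day 7 in labelled libraries, with a log2 difference of -0.39 (SE 0.14, edgeR adjusted p = 0.0347) in control, lost without any 1 control library or labelled day 7 replicate 2 (edgeR adjusted p up to 0.0973) and with the GC trend removed.

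Of the 8 genes for VCP and shuttle factors, which hand ubiquitinated proteins to the cap, 1 rose and 4 fell in control (all genes 23.7% and 24.6%) and 4 rose and 2 fell in labelled cells (32.6% and 37.2%). At day 7, 4 were higher (30.2%) and 1 lower (33.4%) in labelled libraries. The shuttle factors Ubqln1 and Ubqln2 differed at day 7 between labels by 1.60 on the log2 scale (SE 0.17, edgeR adjusted p = 3.79e-06) and -1.01 (SE 0.09, edgeR adjusted p = 1.09e-06). Uba1, the main E1 enzyme that activates ubiquitin, fell in control cells with a log2 difference of -0.55 (SE 0.10, edgeR adjusted p = 0.000805).

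LSD1 peaks near start sites were the rule for these genes once a list was long. A peak within 1 kb was listed for 13 of 47 members in control day 0 (23.0% of tested genes, from 3024 peaks) and 35 in control day 7 (59.8%, from 8303 peaks). It was listed for 43 in labelled day 0 (71.4%, from 13997 peaks) and 45 in labelled day 7 (80.9%, from 27221 peaks). 11 of the 47 members were in all 4 lists, beside 20.2% of tested genes: Psma2, Psma6, Psma7, Psmc2, Psmc3, Psmd3, Psmd5, Psmd11, Psmd12, Psmf1 and Psmg1. None of them is a beta subunit, but the beta ring holds few genes and the share of tested genes is 20.2%. That absence is therefore no result about the ring. Psma8 and Psmb11, the tissue-specific forms with 0 and 7 counts, were in none. The lists differ in length by condition, each is 1 sample of unknown depth, and with a score of at least 100 asked for, the control counts were 0 and 23.

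Scores of the members ran from 61.8 to 89.4 (median 78.9) in control day 0, 52.3 to 379 (median 116) in control day 7, 69.1 to 658 (median 184) in labelled day 0 and 123 to 3095 (median 628) in labelled day 7. Psmd5, the base chaperone, had the highest member score in both labelled lists and in control day 7, and ranked 321 of 27221 peaks in labelled day 7. The members that differed most in RNA were not those with the top scores: in labelled day 7, Psma1 scored 694 and ranked 4910 of 27221, Psmd4 scored 481 and ranked 7071, and Psmd8 scored 411 and ranked 7956. Psma1 had no LSD1 peak in either control list. Whether scores and RNA differences go together was not tested.

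**Figure D5:**
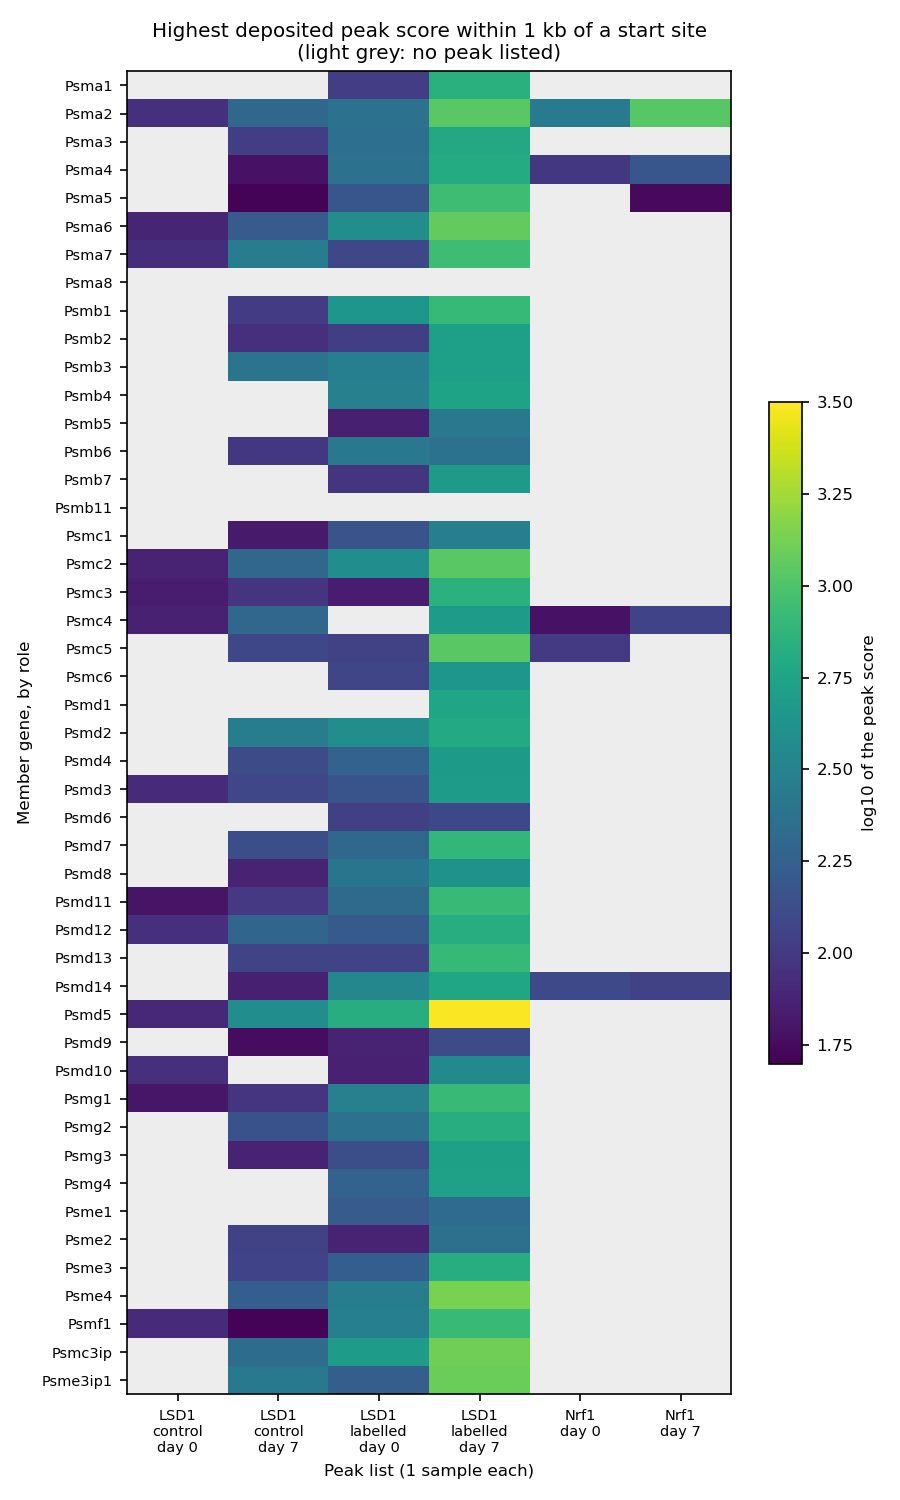
log10 of the authors' highest peak score within 1 kb of a start site for each of the 47 members (rows, by role) in the 6 peak lists (columns, 1 sample each), light grey where no peak is listed. LSD1 columns fill from 13 members in control day 0 to 45 in labelled day 7, and the Nrf1 columns hold 5 members each.

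Some counts carry limits of their own. RefSeq names 1 pseudogene each for Psma5 and Psmb5 and 2 each for Psmb6 and Psmb7, and how the authors treated reads with several matches is not given in the sources used here. Exons of 5 members overlap those of another gene: Psma4 with AY074887, Psmb5 with Mir686 (109 bases, 12.5% of its exons), Psmc3ip with Mlx, Psmd10 with Atg4a and Psme1 with Emc9. Whether strand was used in counting is not given, so those reads cannot be told apart.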

How the data were processed

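RNA-seq counts of 12 libraries and 6 ChIP-seq peak lists were used; 6 input samples were not. The deposited tables hold whole-number counts per RefSeq transcript, which the authors made with TopHat2 version 2 on mm10 and HOMER, with edgeR and DESeq 1.8.3 also named, per the submitters' processing notes; how reads with several matches and strand were treated is not given in the sources used here. The deposited peak lists give a score per peak, the authors' own value, with Bowtie2 and MACS 1.41 named in those notes.

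Here 29144 of 30521 rows were named from the RefSeq table and 177 from GENCODE. The 1200 unnamed rows (0.896% of counts) were kept, each as a gene of its own. They are part of the 24346 genes, and those that passed the filter on low counts are part of the genes tested. The transcript with the highest mean count stood for each gene. Levels are CPM on library sizes scaled by edgeR's TMM factors. edgeR 4.0.16 (R 4.3.3, limma 3.58.1) fitted 4 groups over 12 libraries after its filter on low counts, with the robust quasi-likelihood test, two-sided, Benjamini-Hochberg over 13356 genes and a threshold of 0.05. Every adjusted p is of that kind and measures the spread between libraries. Differences are log2, and intervals are 1.96 SE. Alternatives were DESeq2 1.42.0, other scaling, no filter, only the groups compared, the replicate number as a block, transcripts summed per gene, a loess trend on GC content and length removed (span 0.4), and each library left out. The block was an alternative since same-numbered libraries did not deviate together. The fitting code was tested on simulated data.

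A peak belonged to a gene when it lay within 1 kb of an annotated start site in GRCm38.p6, which is mm10; the highest score counted. Windows of the start site itself and of 5 kb, and a score of at least 100, were tried.

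Values per library are given for the top 3 members in each direction of each comparison, by log2 difference, that passed the test and averaged 10 CPM or more, for members with an Nrf1 peak at both days, and for Kdm1a, Nrf1, Nfe2l1 and the immunoproteasome genes. Psmb5, Psmb6, Psmb7 and other genes given in full outside that rule were chosen after their values were seen. The members and lists were chosen with earlier results of these data known. Some genes of the further lists are not reported here. Python 3.11.15, pandas 2.3.3 and pysam 0.24.0 were used.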

Additional observations from a re-analysis of the deposited data

Results flagged for a closer look

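The changes from day 0 to day 7 differed between labelled and control cells for 21 members and 3 other genes. The measure was the interaction term in edgeR (adjusted p below 0.05 over all genes). Among all tested genes the interaction was positive for 23.9% and negative for 28.1%. In the core the log2 interaction was 1.24 for Psma1, 0.55 for Psma6, 1.03 for Psmb3, 0.67 for Psmb4, 0.58 for Psmb5, 0.65 for Psmb6 and 0.59 for Psmb7. In the cap it was 0.49 for Psmc1, 0.72 for Psmc3, 0.75 for Psmc4, 0.75 for Psmd3, 1.19 for Psmd4, 1.68 for Psmd8 and 0.93 for Psmd13. Among chaperones it was 1.13 for Psmg1, 0.63 for Psmg4 and -0.90 for Psmd10. Among activators, the inhibitor and their partner it was 0.81 for Psme3, 0.48 for Psme3ip1, 0.57 for Psme4 and 0.41 for Psmf1. The immunoproteasome genes Psmb8 and Psmb9 had -4.08 and -5.51, and Kdm1a, the gene named in the label, had -0.57. Labelled day 0 replicate 1, which stood apart from its group, enters each of these values; without it Psmb8 was -2.80, Psmb9 -4.61, Kdm1a -0.63 and Psmd10 -0.63, and the 20 positive values ran from 0.42 for Psmf1 to 1.71 for Psmd8. The summed adipocyte markers also differed by label at day 7, at 9480.1 to 11194 CPM in control and 26502 to 32249.6 CPM in labelled libraries. Their part in these differences was not tested.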

How the results depend on the processing

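Counts of members passing the threshold, their median differences and the counts of members with a peak stayed within 1.5 times, or within the spread, in 253 of 300 recomputed values. Among the genes followed singly, no called value changed sign. Across all members some did: with the GC and length trend removed, 1 alpha subunit fell in labelled cells, at -0.24 on the log2 scale. In that fit 1 base ATPase was lower between labels at day 7. As fitted, no value of either part was negative in these comparisons. Medians near 0 changed sign too. That in control went from 0.04 to -0.06 with the GC and length trend removed. It was -0.03 without control day 0 replicate 1 and just under 0 without control day 0 replicate 3. That between labels at day 0 went from 0.02 to -0.03 with that trend removed. It was -0.05 without control day 0 replicate 1 and -0.09 without labelled day 0 replicate 1. With the GC and length trend removed, 11 members fell in control, 16 rose and 5 fell in labelled cells, 7 were lower at day 0 and 4 at day 7, and 2 had a negative interaction; the medians were then 0.16 in labelled cells, 0.29 at day 7 and 0.31 for the interaction. Without the filter on low counts, 1 member fell in labelled cells, 0 were lower at day 0 and 1 was lower at day 7. With only the groups compared, 0 were higher and 0 lower at day 0 and 2 lower at day 7. With transcripts summed, 1 was lower at day 0. With 1 library left out, falls in control ranged from 1 to 8 and in labelled cells from 0 to 1, day 0 calls from 1 to 5 higher and 0 to 14 lower, lower calls at day 7 from 0 to 2, positive interactions from 14 to 32, negative ones from 0 to 1, and the day 7 median from 0.37 to 0.43. Same-numbered libraries correlated at -0.249 to 0.114 in their deviations, so the numbers were not taken as pairs; with the replicate block, 3 members fell in control and 0 were lower at day 0. With a score of at least 100, an LSD1 peak was listed for 0 members in control day 0 and 23 in control day 7, and an Nrf1 peak for 3 at day 0. Apart from settings where fewer genes, samples or peaks enter, the cause was not tested. For single genes, 913 values kept their call, 64 lost it and 19 gained one. At a depth of 27512273 to 37565527 counts, 45 members passed the filter on low counts, and Psma8 and Psmb11 did not.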
